A study of Mus musculus with 6 samples.

Results

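The IL-6 family genes described here are 5 ligands (Il6, Osm, Lif, Il11 and Clcf1) and 4 receptor chains (Il6ra, Il6st, Lifr and Osmr). They were chosen by name, as the rows of a deposited table of read counts that carry those gene symbols, and are 9 of the 37043 genes in that table. The table holds bulk RNA-seq of mouse bone marrow-derived basophils (BMBAs) and compares 3 libraries from cells given PBS with 3 from cells given 10 ng/mL of IL-3, both for 6 h. The cells of both groups came from wild-type C57BL/6J mice, had been grown from bone marrow for 7 days with a cytokine at 0.3 ng/mL (IL-3, by the study's methods) and had been enriched with beads through CD49b. BMBAs are therefore cells already raised in low IL-3, and the sources used here do not say if IL-3 remained present during the PBS treatment. The study describes 3 cultures per group in 1 experiment. They give no age for the mice.

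Cytokines of this family act through receptor complexes that contain gp130, the signalling chain encoded by Il6st. Which cells respond to which cytokine depends on a further chain: Il6ra binds IL-6, Lifr binds LIF and also joins the complexes of some relatives, and Osmr is the main partner of gp130 for oncostatin M in the mouse. Ligand binding activates Janus kinases and the transcription factor STAT3, and STAT3 induces Socs3, a feedback inhibitor of gp130. Basophils are known as sources of cytokines, IL-6 among them, and IL-3 is their main growth and activating factor.

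IL-3 stimulation went with more RNA of 3 of the 5 ligands, Il6, Osm and Lif, by 15.4-, 12.9- and 22.1-fold. Among the receptors, the shared chain Il6st rose 1.68-fold and the IL-6-specific chain Il6ra fell 1.46-fold. Il11, Clcf1 and Lifr did not pass the test, and Osmr had too few counts to be tested. Calls rest on edgeR's quasi-likelihood test of the counts at a threshold of 0.05 on the p-value adjusted over all 16675 genes that passed a filter on low counts. Thus 8 of the 9 genes were tested, of which 4 rose and 1 fell with IL-3, while 18.0% of all tested genes were called higher and 20.2% lower. The same 4 and 1 genes were called when PBS replicate 1, a library that stands apart below, was left out. The groups of 3 did not overlap for those 5 genes, as was the case for 48.2% of all tested genes.

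Library totals ranged from 10537540 to 13999287 counts. A gene with no count in a library may have been present at up to 3 counts, which is 0.233 to 0.296 CPM (the count as a rate of its library's total, after scaling by TMM, a trimmed mean of log ratios), a limit that covers counting error only. The basophil protease genes Mcpt8 and Prss34 reached 3066 ± 171 and 5614 ± 323 CPM in PBS (SD, n = 3), so the labelled cell type carried its markers, though Lyz2, a marker of monocytes and macrophages, was higher still at 10456 ± 432 CPM. With library totals in place of TMM, the median log2 fold change of all tested genes shifted by -0.16 and 25.2% of the calls were higher in IL-3, instead of 47.1%. The 5 called members kept their direction and call under that scaling.

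The promoters of Il6 and Lif are shown first, because these are the strongly induced ligands with an entry in the promoter table used here, and that of Il6st beside them as the receptor that rose. The table, from RefSeq on GRCm38.p6, matched 7 of the 9 genes; Osm and Clcf1 were not matched. Each line gives the 250 bases before the transcription start, 5′ to 3′ on the gene's strand, in lower case. Capitals mark matches to 4 patterns searched on both strands: STAT (TTCNNNGAA), AP-1 (TGANTCA), C/EBP (TTGNNCAA) and the NF-kB consensus.
Il6, chr5:30012864-30013113, plus strand: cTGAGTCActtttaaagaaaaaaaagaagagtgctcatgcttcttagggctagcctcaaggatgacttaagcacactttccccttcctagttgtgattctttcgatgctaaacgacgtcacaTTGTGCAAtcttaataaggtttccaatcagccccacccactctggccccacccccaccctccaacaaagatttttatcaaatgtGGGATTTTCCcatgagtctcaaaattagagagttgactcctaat
Lif, chr11:4257318-4257567, plus strand: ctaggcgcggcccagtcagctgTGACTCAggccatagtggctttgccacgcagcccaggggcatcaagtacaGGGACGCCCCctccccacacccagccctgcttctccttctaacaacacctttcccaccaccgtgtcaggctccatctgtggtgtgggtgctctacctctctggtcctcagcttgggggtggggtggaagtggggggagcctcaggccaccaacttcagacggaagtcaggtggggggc
Il6st, chr13:112463820-112464069, plus strand: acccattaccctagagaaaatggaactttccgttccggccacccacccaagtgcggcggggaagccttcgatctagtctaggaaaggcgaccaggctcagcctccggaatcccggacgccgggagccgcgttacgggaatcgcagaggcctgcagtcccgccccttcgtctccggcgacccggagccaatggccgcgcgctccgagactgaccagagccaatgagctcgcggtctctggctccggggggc

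The Il6 promoter held 1 AP-1 match, 249 to 243 bases before the start, 1 C/EBP match, 128 to 121 bases before it, and 1 NF-kB match, 44 to 35 bases before it. The Lif promoter held 1 AP-1 match, 228 to 222 bases before the start, and 1 NF-kB match, 178 to 169 bases before it. No matches overlapped one another. Among all 32851 mouse promoters of this length, 6.75% held the AP-1 pattern, 7.25% the NF-kB pattern, 5.65% the C/EBP pattern and 7.02% the STAT pattern. The promoters of Il6st, Il6ra and Osmr and both promoters of Lifr held none of the 4, and no window of the 7 matched genes held the STAT pattern. Of the 2 Il11 promoters, the downstream one held an AP-1 match, 98 to 92 bases before its start. A match of letters describes the window and does not show that a factor binds there.

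Il6 encodes interleukin-6, a cytokine of acute inflammation and B cell help, and lies on chr5:30013114-30019981 (GRCm38, plus strand). Its counts were 1052, 923 and 1078 in the PBS libraries and 12214, 16665 and 18612 in the IL-3 libraries. Every IL-3 library held far more Il6 than any PBS library, and the groups did not overlap. Normalised expression was 87.3 ± 7.10 CPM with PBS and 1346 ± 124 CPM with IL-3 (SD, n = 3). The log2 fold change was 3.95 ± 0.0763 (SE, edgeR adjusted p of 1.9e-15). Il6 ranked 25 among all 16675 tested genes by log2 fold change.

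Osm encodes oncostatin M, made by activated myeloid cells, and lies on chr11:4236420-4241026 (plus strand). Osm had 1487, 1404 and 1514 counts with PBS and 15448, 21629 and 20190 with IL-3. The PBS libraries lay close together and all IL-3 libraries far above them. Its level was 126 ± 6.39 CPM with PBS and 1631 ± 149 CPM with IL-3. The log2 fold change of 3.69 ± 0.0680 (SE, edgeR adjusted p of 1.0e-15) ranked 35 among all tested genes.

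Lif encodes leukaemia inhibitory factor, a regulator of stem cells and of acute-phase responses, and lies 16.5 kb downstream of Osm on the same strand, at chr11:4257557-4272514. It was scarce in the PBS libraries, with 43, 43 and 45 counts, and reached 722, 1016 and 1199 counts in the IL-3 libraries. No PBS library came near the lowest IL-3 library. In CPM the levels were 3.75 ± 0.224 and 83.0 ± 11.0, for a log2 fold change of 4.47 ± 0.128 (SE, edgeR adjusted p of 2.0e-13). Lif ranked 10 among all tested genes by log2 fold change, above Il6 and Osm.

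**Figure D1:**
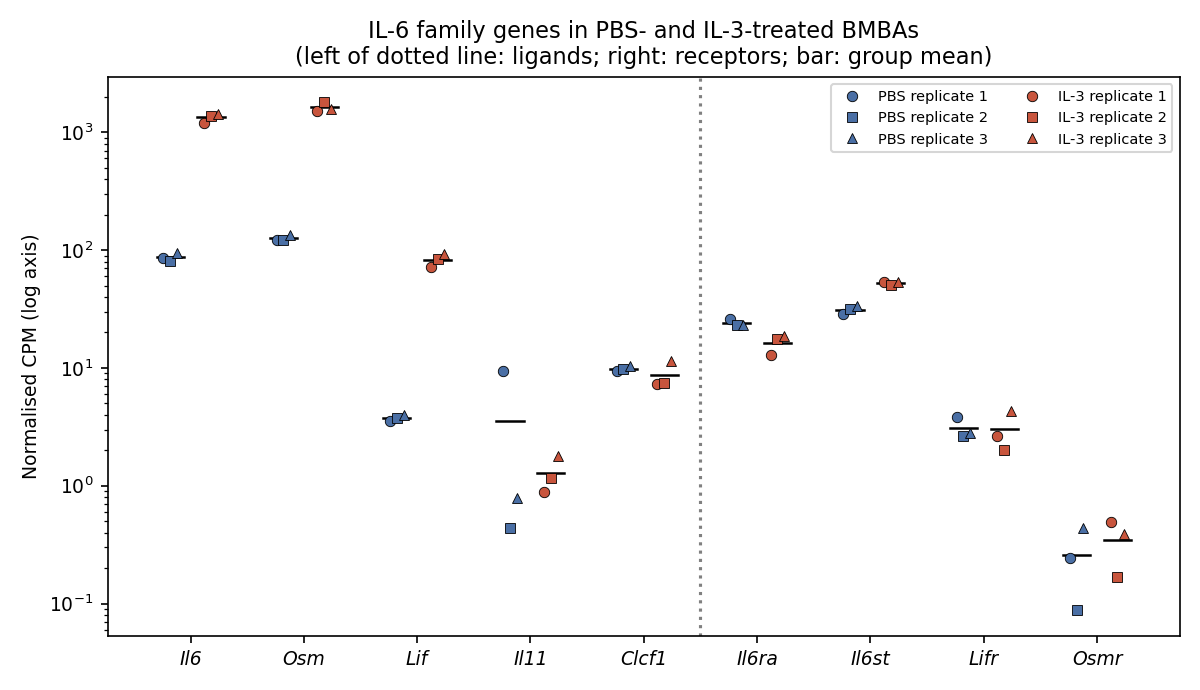
Normalised CPM (log axis) of each of the 9 genes in each library; symbols give the replicate, colours the group (3 PBS, 3 IL-3) and bars the group mean. Il6, Osm and Lif stand far higher in all 3 IL-3 libraries, Il6st is modestly higher and Il6ra lower, and a lone PBS library holds 9.41 CPM of Il11.

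Il11 encodes interleukin-11, a cytokine made mainly by stromal and epithelial cells, and lies on chr7:4772373-4782859 (minus strand). Its counts were 115, 5 and 9 with PBS and 9, 14 and 23 with IL-3. PBS replicate 1 held far more Il11 than the other 5 libraries, and among those 5 the IL-3 libraries were the higher, at 0.889 to 1.78 CPM against 0.438 and 0.793 CPM in PBS replicates 2 and 3. The log2 fold change was -1.46 (SE 0.76), with a 95% interval from -3.08 to 0.16 and an adjusted p of 0.149 in edgeR's test. Without PBS replicate 1 its sign turned, to 1.07 ± 0.49, with an adjusted p of 0.117, so that library alone set the direction. Without PBS replicate 2 or 3 the change was -1.98 or -1.93 and passed the threshold, with adjusted p of 0.0284 and 0.0481 in edgeR's test.

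The same library also stood apart in genes of stromal cells. The summed level of 8 stromal markers was 24.8 CPM in PBS replicate 1 and 2.37 to 3.25 CPM in the other 5 libraries. Dcn, a proteoglycan of connective tissue, had 140 counts there and 0 to 4 elsewhere, and Col1a1, a collagen chain, had 80 counts there and 0 to 4 elsewhere. Col3a1 had 12 counts in PBS replicate 1 and 0 in each of the others. The other 4 markers of the list did not peak there in this way. Lepr, a marker of bone marrow stroma, had 15 counts in PBS replicate 1 and 14 to 17 in the others, Pdgfra had 8 there and 4 to 11 in the others, and Pdgfrb and Cxcl12 had 3 and 2 there and at most 2 and 4 elsewhere. The part of such RNA in the Il11 value was not tested.

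**Figure D2:**
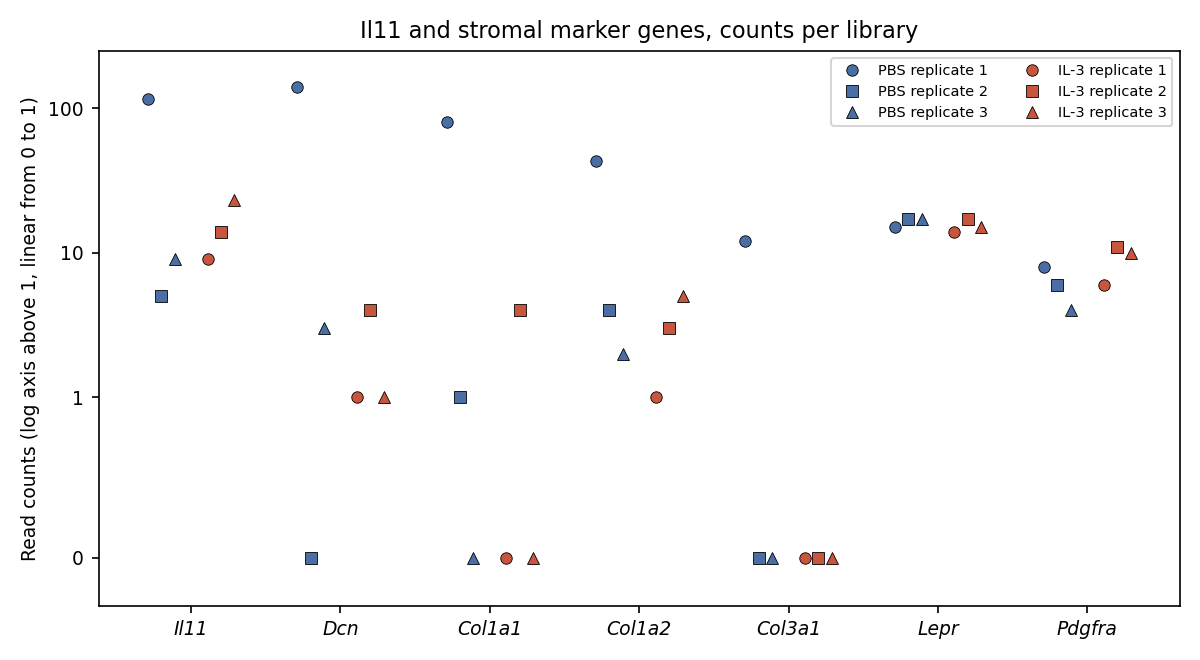
Read counts per library (log axis above 1, linear from 0 to 1) of Il11 and 6 stromal markers, with replicates as symbols and groups as colours. Il11 (115 counts), Dcn (140), Col1a1 (80), Col1a2 (43) and Col3a1 (12) peak in PBS replicate 1, whereas Lepr and Pdgfra do not.

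Clcf1 encodes cardiotrophin-like cytokine factor 1, a B cell-stimulating ligand, and lies on chr19:4214238-4223490 (plus strand). It had 115, 111 and 118 counts with PBS and 74, 90 and 147 with IL-3. The highest IL-3 library exceeded all PBS libraries and the other IL-3 libraries lay below them. Its log2 fold change was -0.16, with a 95% interval from -0.54 to 0.21 and an adjusted p of 0.514 in edgeR's test. An annotated coding gene on the same strand overlaps Clcf1, and 6.77% of the 50-base stretches of Clcf1 transcripts also occur in other genes. The overlapping gene has no row under its symbol among the deposited counts, so how reads of shared stretches were assigned is not known. For Il6, Osm, Lif, Il6ra and Il6st no such stretch occurred in another gene.

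Within a library, ratios of counts do not depend on the scaling between libraries. The count of Il6 per count of Osm was 0.657 to 0.712 in PBS and 0.771 to 0.922 in IL-3. That of Lif per count of Osm was 0.0289 to 0.0306 in PBS and 0.0467 to 0.0594 in IL-3. Both ratios were higher in every IL-3 library, so Osm, the most abundant ligand, rose by the smallest factor of these ligands. Il6 and Osm together made 0.0215% to 0.0244% of all counts in the PBS libraries and 0.262% to 0.302% in the IL-3 libraries. They made most of the counts of the 5 ligands in every library, from 90.3% in PBS replicate 1 to 97.2% in IL-3 replicate 1.

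Il6st, which encodes gp130, lies on chr13:112464070-112510086 (plus strand). Its counts were 351, 362 and 378 with PBS and 541, 605 and 687 with IL-3. The groups did not overlap and the libraries of each group were close together. Normalised expression was 31.3 ± 2.33 CPM with PBS and 52.4 ± 1.71 CPM with IL-3, a log2 fold change of 0.75 ± 0.0821 (SE, edgeR adjusted p of 2.5e-06). This put Il6st at rank 1058 of all tested genes, well below the induced ligands.

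Il6ra encodes the IL-6-binding chain, which is also shed as a soluble receptor, and lies on chr3:89864059-89913196 (minus strand). Counts of Il6ra were 316, 266 and 262 with PBS and 131, 212 and 241 with IL-3. All IL-3 libraries lay below all PBS libraries, with IL-3 replicate 1 the lowest. The level fell by 0.54 ± 0.131 (SE) on the log2 scale, from 24.1 ± 1.54 to 16.4 ± 3.07 CPM (edgeR adjusted p of 0.0037). The count of Il6st per count of Il6ra was thus 1.11 to 1.44 in PBS and 2.85 to 4.13 in IL-3, and each IL-3 library exceeded each PBS library. The fold changes of Il6st and Il6ra were not past a test against a change of 1.5-fold, in which 3 members were called, all of them higher in IL-3.

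**Figure D3:**
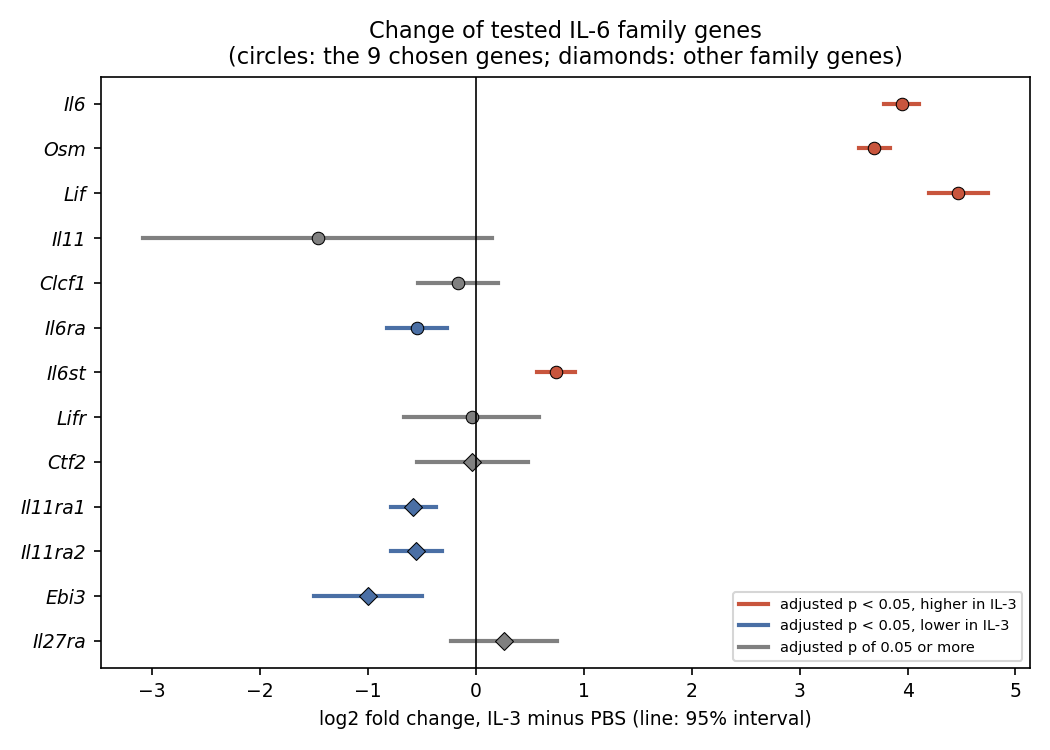
Log2 fold change of IL-3 against PBS with its 95% interval for the 8 tested members (circles) and 5 tested relatives (diamonds), coloured by call at an adjusted p of 0.05. Il6, Osm and Lif lie between 3.69 and 4.47, Il6st at 0.75, Il6ra at -0.54, and the interval of Il11 is the widest, from -3.08 to 0.16.

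Lifr, the LIF receptor chain, lies on chr15:7090614-7197489 (plus strand). It had 47, 30 and 32 counts with PBS and 27, 24 and 56 with IL-3, and its groups overlapped. The log2 fold change was -0.04, with a 95% interval from -0.66 to 0.59 and an adjusted p of 0.938 in edgeR's test, so changes of 1.5-fold in either direction lie inside the interval. Its sign was not stable, and the value was 0.15 without PBS replicate 1. Osmr, the oncostatin M receptor chain, lies 215.6 kb from Lifr at chr15:6813577-6874969 (minus strand) and had 3, 1 and 5 counts with PBS and 5, 2 and 5 with IL-3. These counts lay around the limit of detection in both groups. In a fit with no filter on low counts, Osmr had a log2 fold change of 0.42 ± 0.82 (SE, edgeR adjusted p of 0.799).

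To compare levels between genes, CPM were divided by the length of each gene's longest coding transcript. On this scale the order in PBS was Osm, at 55.5 ± 2.81 CPM per kb (SD, n = 3), Il6, at 37.3 ± 3.03, then Clcf1, Il6st, Il6ra, Il11, Lif, Lifr and Osmr, from 5.33 down to 0.0470 CPM per kb. The levels of Il11 overlapped those of its neighbours in that order, Il6ra and Lif, and no other neighbours overlapped. In IL-3 the order was Osm, at 718 ± 65.6 CPM per kb, Il6, at 574 ± 53.1, and Lif, at 20.6 ± 2.72, then Il6st, Clcf1, Il6ra, Il11, Lifr and Osmr, where only Il6st and Clcf1 overlapped. Lif moved from place 7 to place 3; without PBS replicate 1, an order added after seeing the data, Lif was at place 6 in PBS and Il11 at place 7. With all annotated exons as the length, a setting chosen after seeing the data, Clcf1 took place 5 rather than 3 in PBS.

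Among 12549 tested coding genes, Osm went from place 934 in level per kb to place 75, and Il6 from place 1430 to place 98. Lif went from place 10625 to place 2610, so its level with IL-3, although 22.1-fold higher, was exceeded by many genes. The receptor chains were in the lower or middle part of that order in both groups: Il6st went from place 7832 to place 6060 and Il6ra from 8520 to 9047. Lifr was at place 11970 with PBS and place 11936 with IL-3, near the bottom.

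Set beside their specific receptor chains per kb, Il6, Osm and Lif were the higher in every library, and Il11 the lower. Il6 was 12.3 to 15.2 times the level of Il6ra per kb in PBS libraries and 285 to 344 times in IL-3 libraries. Lif was 2.19 to 3.44 times the level of Lifr in PBS and at least 51.3 times in IL-3. By counts, PBS replicate 1 held 43 of Lif and 47 of Lifr. PBS replicates 2 and 3 held 43 and 45 of Lif against 30 and 32 of Lifr. The order in PBS replicate 1 thus rests on the division by length, and coverage along the transcripts was not tested. For Il6 and Il6ra the ratio of counts was 3.329 to 4.115 in PBS and 77.23 to 93.24 in IL-3. The level of Osm was at least 732 times that of Osmr in every library, but the few Osmr counts leave these ratios imprecise. Il11 was 0.00999 to 0.22 times the level of Il11ra1 in PBS and 0.0255 to 0.0626 times in IL-3, and many reads of Il11ra1 could belong to a near-identical gene. These are ratios of RNA in a mixed pool of cells and give no amount of protein.

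**Figure D4:**
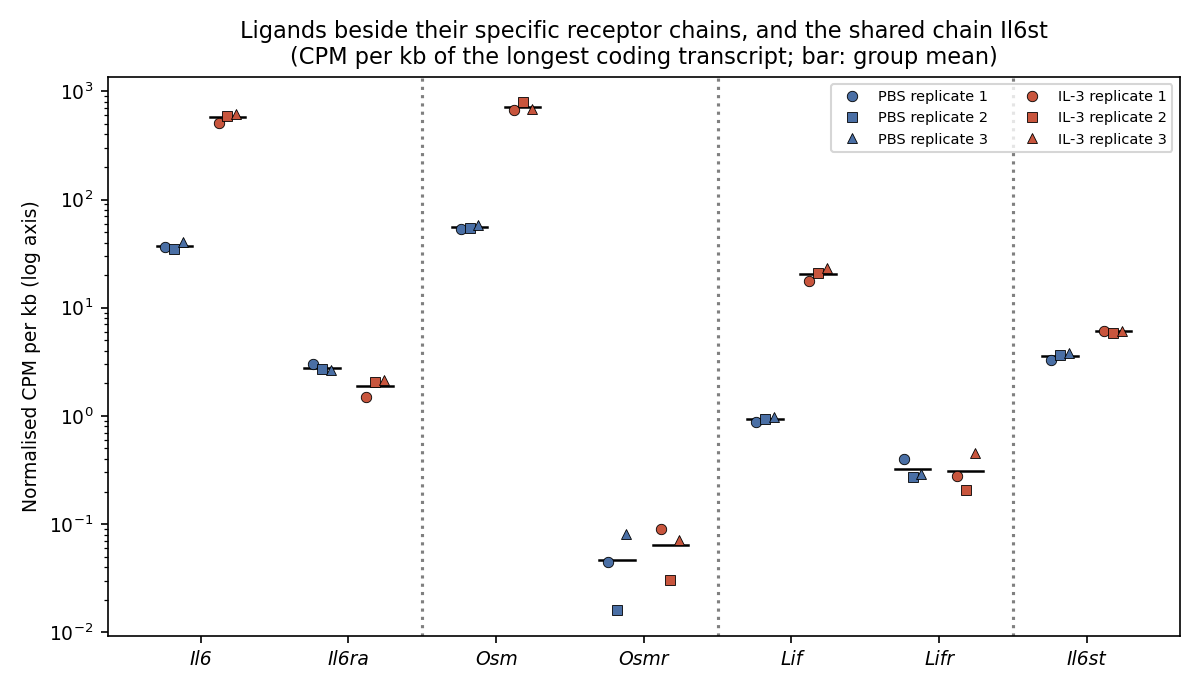
Normalised CPM per kb of the longest coding transcript (log axis) in each library for Il6 and Il6ra, Osm and Osmr, Lif and Lifr, and the shared chain Il6st; bars are group means. On this scale, each ligand lies above its receptor chain in all 6 libraries, and the distance is wider in the IL-3 libraries.

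Of 12 further genes of the family, 5 were tested, with 0 called higher and 3 lower. Among all tested genes, 18.0% were called higher and 20.2% lower. The median log2 fold change of the 5 was -0.55, against -0.0033 over all tested genes. Il11ra1, the chain that binds IL-11, had 539, 516 and 549 counts with PBS and 364, 328 and 379 with IL-3, and fell by 0.58 on the log2 scale (edgeR adjusted p of 0.00024). Il11ra2 fell by 0.55, but all of its 50-base stretches and 46.3% of those of Il11ra1 also occur in other genes, so the split of reads between these near-identical genes is uncertain. Ebi3, a subunit of IL-27 and IL-35, had 105, 62 and 82 counts with PBS and 47, 42 and 34 with IL-3, and had a log2 fold change of -0.998 (edgeR adjusted p of 0.0031). Il27ra had a log2 fold change of 0.26 (adjusted p of 0.414, edgeR) and Ctf2 one of -0.03 (adjusted p of 0.934). Tested against a change of 1.5-fold, 0 of the 5 were called.

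The other 7 did not pass the filter, and 6 of them are described. Il31ra, the gp130-like chain for IL-31 that lies 9.8 kb from Il6st, had 5, 6 and 5 counts with PBS and 19, 11 and 14 with IL-3. Il27, the partner of Ebi3, had 0, 0 and 2 counts and then 2, 8 and 6. In the fit with no filter these 2 genes were called higher, at log2 fold changes of 1.47 and 2.77 (edgeR adjusted p of 0.0153 and 0.0414). That fit also called Il11, with an SE of 0.30 instead of 0.76, so its p-values for genes of few counts need caution. Il31ra also passed the filter and the test when PBS replicate 2, PBS replicate 3 or IL-3 replicate 2 was left out, at 1.56, 1.43 and 1.64 (edgeR adjusted p of 0.0349, 0.0495 and 0.0173). Cntfr, the receptor chain used by Clcf1, had 1 count in 1 PBS library and 0 in the other 5. Ctf1, Cntf and Il31 had at most 14 counts in any library, and 78.0% of the 50-base stretches of Cntf also occur in another gene.

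Of 18 genes of gp130 signal transduction, all tested, 10 were called higher and 3 lower. The shares over all tested genes were 18.0% and 20.2%. The median log2 fold change of the 18 was 0.25, beside -0.0033 over all tested genes. Socs3, the feedback inhibitor, had 30.7 ± 1.07 CPM with PBS and 379 ± 6.28 CPM with IL-3, for a log2 fold change of 3.63 (edgeR adjusted p of 3.8e-16), with rank 38 of all tested genes. Jak2, a kinase that also serves the IL-3 receptor, rose by 1.07 (adjusted p of 8.6e-10, edgeR), and Gab2, an adaptor of cytokine receptors, by 1.14 (adjusted p of 1.9e-09). The 3 genes that fell were Stat3, the main STAT of gp130, by 0.25, the kinase gene Mapk3 by 0.33 and the adaptor gene Gab1 by 0.97. The groups of Gab1 overlapped, with 117, 68 and 46 counts with PBS and 23, 42 and 53 with IL-3. Without PBS replicate 1, 9 genes of the list were called higher and 2 lower. Tested against a change of 1.5-fold, 4 of the 18 were called higher and 0 lower. With library totals in place of TMM, 7 were called higher and 5 lower.

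For the proteases and partners that release soluble IL-6 receptor, 2 of 5 tested genes were called higher and 1 lower, with a median of -0.19. All tested genes gave 18.0% called higher and 20.2% lower. Adam10, a shedding protease, rose by 0.42 (edgeR adjusted p of 0.00012) and Rhbdf2, a partner of ADAM17, by 0.73 (adjusted p of 4.3e-06). Adam17 itself fell by 0.25 (edgeR adjusted p of 0.0054). Tested against 1.5-fold, none of the 5 was called, and with library totals 2 were called lower.

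Of 14 genes that govern decay of Il6 and other cytokine mRNAs, 7 were called higher and 0 lower, with a median of 0.27. Of all tested genes, 18.0% were called higher and 20.2% lower. Arid5a, which stabilises Il6 mRNA, had 21.1 ± 1.83 CPM with PBS and 74.7 ± 2.60 CPM with IL-3, for a log2 fold change of 1.82 (edgeR adjusted p of 6.3e-11). Elavl1, a stabiliser of AU-rich mRNAs, rose by 0.56 (adjusted p of 3.8e-06, edgeR), and Cnot7, a deadenylase subunit, by 0.49 (adjusted p of 0.00019). The list thus holds stabilisers and destabilisers that rose together. Tested against 1.5-fold, 1 of the 14 was called. With library totals in place of TMM, 5 of the 14 were called higher and 2 lower. Without IL-3 replicate 2, Zfp36l2, a destabiliser of AU-rich mRNAs, was called lower, at -0.23 (edgeR adjusted p of 0.039).

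Of 17 transcription factors known to act at the Il6 promoter or downstream of IL-3, 9 were called higher and 3 lower, with a median of 0.23. Beside this, 18.0% of all tested genes were called higher and 20.2% lower. Jund, an AP-1 subunit, had 208 ± 9.96 CPM with PBS and 604 ± 30.5 CPM with IL-3, for a log2 fold change of 1.54 (edgeR adjusted p of 4.0e-12). Nfkb1, an NF-kB subunit, rose by 1.13 (adjusted p of 2.0e-08, edgeR), and Cebpa, a C/EBP factor of myeloid differentiation, fell by 0.71 (adjusted p of 9.1e-07). The other AP-1 genes of the list did not all follow Jund. Fos fell by 0.96 and Jun had a value of -0.05 and was not called, while Fosl1, Fosl2 and Junb rose by 2.65, 0.49 and 0.34. Tested against 1.5-fold, 3 of the 17 were called higher and 0 lower. With library totals in place of TMM, 6 were called higher and 3 lower, as was the case without IL-3 replicate 2.

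Osm and Lif are neighbours on chromosome 11, and 4 of the 5 other tested coding genes within 100 kb of either were called higher, with 0 lower. Over all tested genes, 18.0% were called higher and 20.2% lower. The changes of these neighbours were small beside those of Osm and Lif. Castor1, an arginine sensor 14010 bases upstream of Osm, rose by 0.83 on the log2 scale (edgeR adjusted p of 8.3e-05). Tbc1d10a, Sf3a1 and Rnf215 rose by 0.46, 0.29 and 0.46, and Ccdc157 had a value of -0.08 (adjusted p of 0.772, edgeR). Around Il6, Garem2 had 2, 10 and 7 counts with PBS, and rose by 2.58 (adjusted p of 7.3e-05, edgeR), Tyms rose by 0.40, and Hadha had a value of 0.12 (adjusted p of 0.149).

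**Figure D5:**
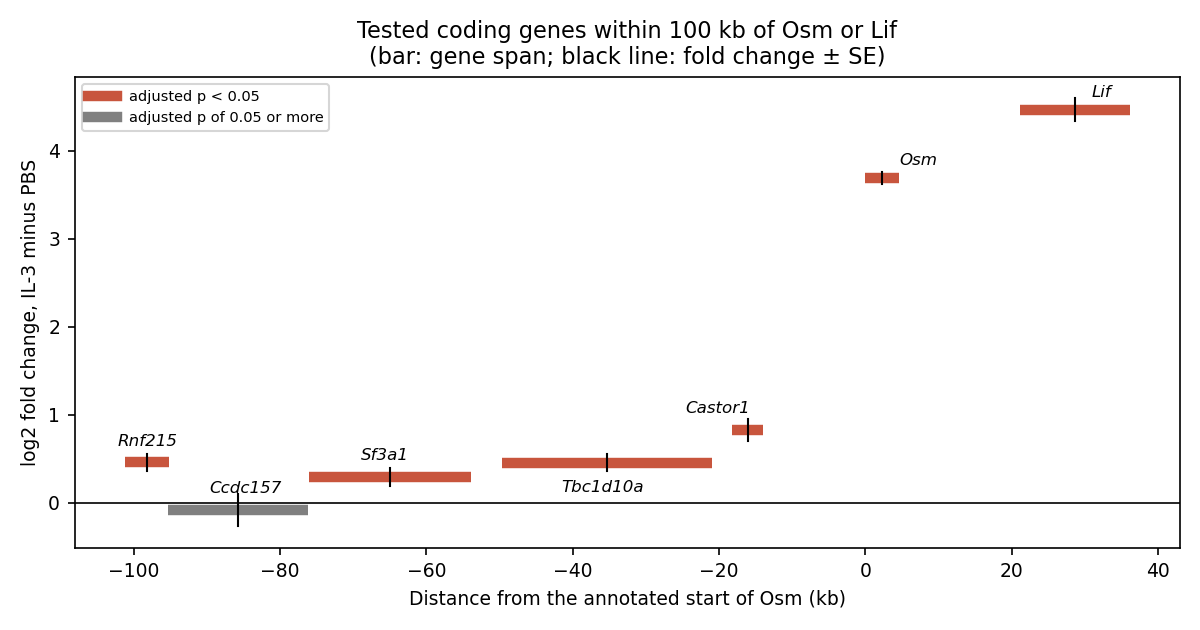
Log2 fold change of IL-3 against PBS for tested coding genes within 100 kb of Osm or Lif, against distance in kb from the annotated start of Osm; each coloured bar spans the gene and each black line is the fold change ± SE. Osm at 3.69 and Lif at 4.47 lie far above their neighbours, of which the highest is Castor1 at 0.83.

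Near the other members, calls went in both directions. The shares over all tested genes were 18.0% called higher and 20.2% lower. Within 100 kb of Clcf1, 4 of 13 tested coding genes were called higher and 7 lower, and within 100 kb of Il11, 1 of 9 was called higher and 4 lower. Around Il6ra, 2 of 6 were called higher and 0 lower. The lone tested neighbour of Osmr, Rictor, had a log2 fold change of 0.28 (edgeR adjusted p of 0.0506). Near Il6st, 1 coding gene was tested and not called, and near Lifr none was tested.

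Over the 6 libraries, the genes most like Il6 in log2 CPM were Fcer1g (Pearson's r of 0.9998), Tmem64 (0.9998) and Csf2rb2 (0.9997), out of 7121 genes of at least 20 CPM in their higher group. Fcer1g encodes the signalling chain of the IgE receptor, and Csf2rb2 the mouse beta chain of the IL-3 receptor. The genes most like Il6st were 1810013L24Rik (r of 0.9993), Suox (0.998) and Ifi35 (0.9977). The 6 libraries form 2 groups, so such values follow mostly the group difference: 1143 genes had r above 0.95 with Il6 and 1006 with Il6st.

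In bulk RNA, fewer cells of a type and less RNA per cell cannot be told apart, and markers of several cell types moved with the members. For the marker lists here and below, the shares over all tested genes were 18.0% called higher and 20.2% lower. Of 8 basophil markers, 6 were called higher and 1 lower. Their summed level was 10250 to 11440 CPM in PBS and 15300 to 15490 CPM in IL-3. Mcpt8 rose by 0.94 and Prss34 had a log2 fold change of 0.01. Of 7 tested mast cell markers, 5 were called higher and 0 lower, Cpa3 by 0.53 and Tpsb2 by 1.04, with a summed level of 874 to 977 CPM in PBS and 1481 to 1612 CPM in IL-3. Of 9 monocyte and macrophage markers, 1 was called higher and 7 lower, Lyz2 by -0.97 and C1qb by -1.06 on the log2 scale, with a summed level of 11830 to 12770 CPM in PBS and 6157 to 6797 CPM in IL-3. Il6, Osm and Lif thus rose by larger factors than the summed level of any of these 3 lists, while the change of Il6ra was smaller than that of the summed macrophage markers. Their part in the values of the members was not tested.

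Other cell types gave lower levels, and within their lists markers moved in opposite directions. Summed neutrophil markers were 75.6 to 111 CPM in PBS and 129 to 190 CPM in IL-3; of 5 tested, 2 were called higher and 1 lower. Retnlg, a secreted neutrophil product, and Ly6g, a surface marker, rose by 2.61 and 3.66 on the log2 scale (edgeR adjusted p of 3.0e-11 and 6.0e-05), and Mpo, a granule enzyme, fell by 0.63. Ly6g had 0, 4 and 2 counts with PBS and 23, 35 and 22 with IL-3, so its fold change rests on few counts. Summed eosinophil markers were 155 to 173 CPM in PBS and 95.02 to 136 CPM in IL-3; of 5 tested, 1 was called higher and 3 lower. Prg2, a granule protein gene, had 62, 60 and 28 counts with PBS and 473, 476 and 812 with IL-3. It rose by 3.54 on the log2 scale (edgeR adjusted p of 1.7e-09), close to Osm at 3.69, whereas Ear2, an eosinophil ribonuclease, fell by 1.39. The part of such cells in the values of the members was not tested.

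Endothelial markers summed to 125 to 151 CPM in PBS and 168 to 170 CPM in IL-3, nearly all of it Pecam1, which leukocytes also express; of 2 tested, Pecam1 rose by 0.32 and Kdr fell by 1.11. Dendritic cell markers summed to at most 13.2 CPM in any library, with Cd209a at 0 counts in all of them; of 5 tested, 1 was called, Clec9a, which fell by 1.29, and Xcr1 had a value of 0.21. T and B cell markers, led by Ms4a1 and Cd3d, summed to at most 9.58 CPM, and 0 of 4 tested were called by edgeR's test, nor did any have an unadjusted p below 0.05.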

How the data were processed

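Bulk RNA-seq libraries of BMBAs (3 PBS, 3 IL-3) were analysed from a table of raw read counts, deposited by the authors, with 1 row per gene symbol. By the study's methods, mRNA was bound to oligo-dT beads, amplified as cDNA and sequenced, and the authors trimmed reads with Cutadapt (3.4 in the submitters' processing notes), mapped them with Bowtie2 to reference RNA and summed counts by symbol. The methods name the build GRCm38 and the processing notes GRCm39. The strand setting is not described here, and no molecular identifiers are described, so PCR copies were counted as reads. The labels name a column kit for RNA extraction and the methods direct lysis. That the 3 samples of a group were separate cultures is stated in the study and not in the labels.

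Counts were filtered with filterByExpr, scaled by TMM and tested with edgeR 4.0.16 (R 4.3.3; glmQLFit and glmQLFTest, group as the only term, two-sided), with Benjamini-Hochberg adjustment over all 16675 genes tested and a threshold of 0.05. The authors' TCC also relies on edgeR. Standard errors came from the F value. The fit was tested on simulated data. Alternatives were DESeq2 1.42.0 (its size factors and its Wald test), library totals, an iterated TMM, limma-voom (limma 3.58.1), edgeR's exact test, other filters, a stricter threshold, a test against 1.5-fold, the replicate block and leaving out each library. No per-sample column was left unused.

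Coordinates, lengths and neighbours came from GENCODE M21 (GRCm38), which held 96.22% of the symbols and all 9 members; promoters came from RefSeq (GRCm38.p6). Named genes were the members, 12 relatives, the 3 called genes of smallest adjusted p in each pathway list, the 2 most abundant genes of each marker list, coding genes within 100 kb of members, and the 3 genes best correlated (log2 of CPM + 0.5) with Il6 and with Il6st, the called receptor of smallest adjusted p. The members and lists were chosen with earlier results of these data known, so their counts are descriptions. A relative that the rule covers is not reported here. Genes named outside that rule were chosen after their values were seen. These are Stat3, Mapk3, Gab1, Zfp36l2, Fos, Jun, Fosl1, Fosl2, Junb, Ly6g, Pdgfrb, Cxcl12, Pdgfra, Cd209a, Col1a1, Col1a2 and Col3a1 in the results. The matrix genes named last of all are also among them.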

Additional observations from a re-analysis of the deposited data

How the results depend on the processing

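Of 128 alternative values of the 8 tested members' log2 fold changes, 121 kept direction and side of the threshold, among them all values of Il6, Osm, Lif, Il6st, Il6ra and Clcf1 (the test against 1.5-fold and a threshold of 0.01 concern counts only). The other 7 belonged to Il11 and Lifr. When each library was left out in turn, Il11 ranged from -1.98 to 1.07 and Lifr from -0.42 to 0.19, and the number of members called lower from 1 to 2. Lifr was 0.15 without PBS replicate 1, 0.03 without IL-3 replicate 1 and 0.19 without IL-3 replicate 2. Il11 was called without PBS replicate 2 or 3 and in the fit without a filter (-1.45, edgeR adjusted p of 1.7e-05, 2 members called lower), and had an adjusted p of 0.793 in limma-voom; the cause was not tested. With library totals 1698 genes were called higher, instead of 3003. Against a change of 1.5-fold, 709 genes were called higher and 883 lower (instead of 3372), and 0 members lower, since this test asks for a larger change. Il6 ranged from 3.78 to 4.02, Osm from 3.53 to 3.74, Lif from 4.30 to 4.56, Il6st from 0.58 to 0.79 and Il6ra from -0.71 to -0.41. The labels share only replicate numbers between groups. Deviations of same-numbered libraries correlated at 0.0004, -0.018 and -0.029, and no library correlated best with its own number. With the replicate block, 2842 genes were called higher and 3247 lower, 94.0% of the calls were kept, 4 members were called higher and 1 lower, and Il11 had a value of -0.81. Depth limits statements on Osmr, Lifr and the relatives under 20 counts.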

Other observations

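PBS replicate 1 held further genes that the other libraries nearly lacked. In that library, 18 of 37043 genes reached at least 2 CPM and more than 5 times their level in each of the other 5 libraries. Il11, at 9.41 CPM against at most 1.78 CPM elsewhere, was the third highest of them. The others included Timp1, an inhibitor of matrix proteases, at 15.1 CPM against at most 1.19 CPM, Dcn at 11.5 CPM, the collagen chaperone gene Serpinh1 at 6.38 CPM, the proteoglycan gene Bgn at 5.15 CPM, and Grem1, an antagonist of bone morphogenetic proteins, at 4.17 CPM. Il6, Osm, Lif and Il6st did not stand out in that library: Il6 had 86.1 CPM there, and 80.9 and 94.96 CPM in PBS replicates 2 and 3.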
